A study of Mus musculus with 12 samples.

Results

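The genes described are 10 genes used as markers of neutrophils, named one by one as a list: S100a8, S100a9, Retnlg, Csf3r, Cxcr2, Ngp, Camp, Mmp25, Trem1 and Il1r2. All 10 were found among the 78334 genes of a count table of 12 mouse left ventricles, 1 poly(A) RNA library from each of 3 groups of 4 animals. Sham vehicle mice had a sham operation and then normal chow. UNX/DOCA vehicle mice had the UNX/DOCA operation, that is, removal of 1 kidney (UNX) with deoxycorticosterone acetate (DOCA), a mineralocorticoid, which gives diastolic dysfunction, and they too ate normal chow. UNX/DOCA ITF2357 mice were operated on in the same way and, 4 weeks later, changed to chow holding ITF2357 for 4 weeks. ITF2357, or givinostat, inhibits histone deacetylases. No Sham group received ITF2357, and strain, sex and age are not given in the labels. UNX/DOCA vehicle enters the comparison with Sham vehicle and the comparison with UNX/DOCA ITF2357, so these share its 4 libraries.

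Neutrophils are short-lived white blood cells made in the bone marrow. While they mature there, they fill their granules in a fixed order: genes of the azurophil granules are transcribed first, those of the specific granules next, and those of the gelatinase granules later. Cxcr2, a receptor that guides them into tissue, is mainly a feature of the mature cell. Neutrophils circulate in blood, are rare in an uninjured heart, and enter it from small vessels in inflammation. In RNA of whole tissue, fewer cells of a type and less RNA per cell cannot be told apart.

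In the left ventricle, the 10 genes were high in 2 of the 4 UNX/DOCA vehicle libraries, replicates 3 and 4, and low or intermediate in the other 10 libraries. Summed over the 10 genes, the level was 36.1, 51.7, 13.97 and 35.2 CPM (counts per 1000000 counts of the library, scaled by the TMM method) in Sham vehicle replicates 1 to 4. In UNX/DOCA vehicle it was 24.3, 4.17, 592 and 164.5 CPM, and in UNX/DOCA ITF2357 4.99, 17.5, 14.7 and 28.6 CPM. UNX/DOCA vehicle thus held both the highest libraries and the lowest one. For 9 of the 10 genes replicate 3 of UNX/DOCA vehicle was the highest of all 12 libraries, and for Trem1 it was replicate 4. Replicate 4 came second for 7 genes, while Sham vehicle replicate 2 came second for Ngp and Camp. The lowest library was UNX/DOCA vehicle replicate 2 for 6 genes and UNX/DOCA ITF2357 replicate 1 for 4, ties at 0 counts included.

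**Figure D1:**
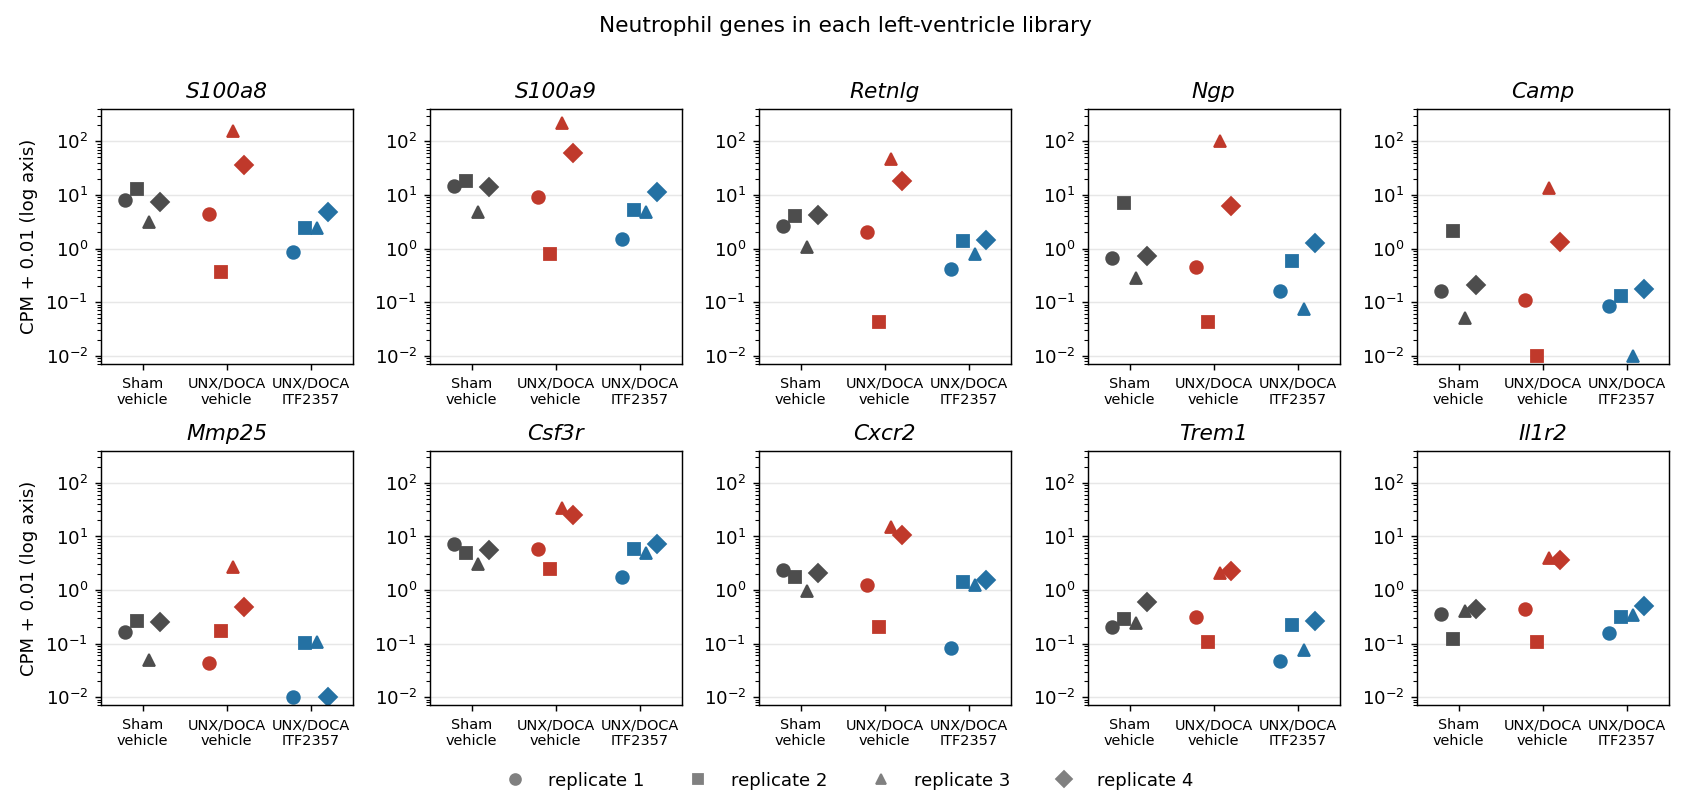
CPM of the 10 neutrophil genes in each of the 12 left-ventricle libraries (log axis, 0.01 added so that libraries at 0 can be drawn); each point is 1 library, its shape the replicate number within the group and its colour the group. Replicates 3 and 4 of UNX/DOCA vehicle (triangle and diamond) stand above the other libraries for S100a8, S100a9, Retnlg, Csf3r, Cxcr2, Mmp25, Trem1 and Il1r2, while for Ngp and Camp Sham vehicle replicate 2 lies above UNX/DOCA vehicle replicate 4.

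The labels call the replicates biological. Total counts ran from 23354045 to 34908810 per library, and UNX/DOCA vehicle replicate 3 had the fewest. It also had the lowest share of counts in mitochondrially encoded genes, 23.7% in a range of 23.7 to 27.8%. As a check of the tissue label, 8 cardiomyocyte genes (Myh6, Tnnt2 and others) summed to between 63310 and 81490 CPM in every library. At the mean depth 1 CPM is 28.3 counts, so genes below 0.1 CPM rest on a few counts, and a count of 0 allows up to 3 counts, or 0.0838 to 0.125 CPM depending on the library.

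The promoters of 5 of the genes are shown because their transcripts fall into the groups that varied apart in the libraries described further on: a calprotectin subunit (S100a8), granule genes (Ngp, Camp) and receptors (Csf3r, Cxcr2). Each is the 250 bases before the start of the gene in RefSeq on GRCm38.p6, given 5′ to 3′ on the strand of the gene. The deposited counts were made on mm39, so these positions are not those of the counted features. All 10 genes had an entry. Capitals mark 2 searched motifs on either strand: GAGGAA, the core that PU.1, a transcription factor of myeloid cells, prefers, and TTGCNNAA, a form of the site of C/EBP factors, which drive granulocyte genes. No matches overlap in the windows of the 10 genes, and a match is a string of letters, not a shown binding site.
S100a8: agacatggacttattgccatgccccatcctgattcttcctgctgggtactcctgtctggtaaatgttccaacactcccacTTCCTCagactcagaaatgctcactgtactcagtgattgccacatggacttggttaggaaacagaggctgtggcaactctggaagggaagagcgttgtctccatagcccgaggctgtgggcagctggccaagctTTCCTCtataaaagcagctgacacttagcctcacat
Ngp: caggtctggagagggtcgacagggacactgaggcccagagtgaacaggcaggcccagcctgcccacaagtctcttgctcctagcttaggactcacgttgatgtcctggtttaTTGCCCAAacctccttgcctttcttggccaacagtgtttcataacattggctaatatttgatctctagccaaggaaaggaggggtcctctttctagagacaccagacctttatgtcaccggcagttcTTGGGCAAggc
Camp: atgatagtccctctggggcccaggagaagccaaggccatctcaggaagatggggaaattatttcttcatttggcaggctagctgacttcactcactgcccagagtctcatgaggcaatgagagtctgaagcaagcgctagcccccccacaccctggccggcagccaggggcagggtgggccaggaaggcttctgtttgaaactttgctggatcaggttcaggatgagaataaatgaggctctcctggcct
Csf3r: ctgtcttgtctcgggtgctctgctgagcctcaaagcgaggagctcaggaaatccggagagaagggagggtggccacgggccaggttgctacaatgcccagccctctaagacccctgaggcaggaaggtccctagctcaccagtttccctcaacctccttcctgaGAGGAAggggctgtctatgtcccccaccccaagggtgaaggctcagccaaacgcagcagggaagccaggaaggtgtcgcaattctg
Cxcr2: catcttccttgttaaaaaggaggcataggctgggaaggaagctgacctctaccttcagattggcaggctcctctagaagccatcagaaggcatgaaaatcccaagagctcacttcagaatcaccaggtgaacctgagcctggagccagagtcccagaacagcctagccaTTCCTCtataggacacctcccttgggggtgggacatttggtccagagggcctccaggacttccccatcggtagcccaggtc

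The S100a8 window is chr3:90668821-90669070 (plus strand), and it holds GAGGAA on the opposite strand at 170 and 36 bases before the start. Those of Ngp and Camp are chr9:110419558-110419807 (plus strand) and chr9:109849457-109849706 (minus strand). TTGCNNAA stands at 138 and 11 bases before the start of Ngp, and neither motif is in the Camp window. Those of Csf3r and Cxcr2 are chr4:126024409-126024658 (plus strand) and chr1:74153744-74153993 (plus strand), each with 1 GAGGAA, at 86 and 81 bases. Over the 10 genes, 5 windows held GAGGAA (S100a8, Csf3r, Cxcr2, Mmp25, Trem1) and 3 held TTGCNNAA (S100a9, Retnlg, Ngp). Of all 32851 windows of this length in the table, 23.3% held GAGGAA and 9.6% held TTGCNNAA. No window of the 10 genes held both, and those of Camp and Il1r2 held neither.

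S100a8 and S100a9 encode the subunits of calprotectin, a calcium- and zinc-binding complex that fills the neutrophil cytosol and signals through Tlr4 when released. Per kilobase of exon they were the highest of the 10 genes, at a Sham vehicle mean of 24.7 CPM per kb for S100a9 and 11.25 for S100a8, against 0.0322 for Mmp25, the lowest. S100a8 stood at 7.91, 12.9, 3.125 and 7.33 CPM in Sham vehicle replicates 1 to 4, at 4.45, 0.3555, 157 and 35.85 CPM in UNX/DOCA vehicle, and at 0.850, 2.40, 2.36 and 4.81 CPM in UNX/DOCA ITF2357. The UNX/DOCA vehicle libraries thus spanned the whole range, with replicates 3 and 4 above every other library and replicate 2 below all of them. S100a9 had the same order within UNX/DOCA vehicle, at 9.31, 0.776, 217 and 60.6 CPM, beside 4.79 to 18.35 CPM in Sham vehicle and 1.52 to 11.35 CPM in UNX/DOCA ITF2357. Mean S100a8 was 49.5 ± 73.6 CPM in UNX/DOCA vehicle, against 7.81 ± 3.995 in Sham vehicle and 2.60 ± 1.635 with ITF2357 (SD, n = 4), so that in UNX/DOCA vehicle the SD exceeded the mean.

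Ngp (neutrophilic granule protein) and Camp (the cathelicidin antimicrobial peptide) are stored in specific granules and are transcribed in marrow before release. Ngp was at 0.646, 7.10, 0.277 and 0.721 CPM in Sham vehicle, 0.439, 0.0323, 99.9 and 6.22 CPM in UNX/DOCA vehicle, and 0.148, 0.577, 0.0656 and 1.28 CPM in UNX/DOCA ITF2357. Camp was lower throughout, at 0.152, 2.095, 0.0396 and 0.200 CPM in Sham vehicle, 0.101, 0, 13.3 and 1.295 CPM in UNX/DOCA vehicle, and 0 to 0.166 CPM in UNX/DOCA ITF2357. For both genes 1 Sham vehicle library, replicate 2, stood far above the other 3 and above UNX/DOCA vehicle replicate 4. Retnlg, a resistin-like protein secreted by mature mouse neutrophils, followed S100a8: 2.66, 4.08, 1.07 and 4.125 CPM in Sham vehicle, 2.06, 0.0323, 47.6 and 18.2 CPM in UNX/DOCA vehicle, and 0.407 to 1.45 CPM in UNX/DOCA ITF2357. Mmp25, a membrane-bound matrix metalloproteinase of leukocytes, was near the limit of detection outside UNX/DOCA vehicle. It ran from 0.0396 to 0.251 CPM in Sham vehicle and from 0 to 0.0984 CPM in UNX/DOCA ITF2357, and stood at 0.0337, 0.162, 2.701 and 0.4675 CPM in UNX/DOCA vehicle.

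The receptors were spread less. Csf3r, the receptor for G-CSF, the factor that drives neutrophil production, was at 7.185, 4.83, 3.05 and 5.57 CPM in Sham vehicle, 5.87, 2.42, 33.45 and 25.6 CPM in UNX/DOCA vehicle, and 1.74, 5.71, 4.85 and 7.29 CPM in UNX/DOCA ITF2357. Cxcr2, the chemokine receptor that brings neutrophils to tissue, was at 0.9495 to 2.36 CPM in Sham vehicle, 1.25, 0.194, 15.2 and 10.5 CPM in UNX/DOCA vehicle, and 0.0740 to 1.53 CPM in UNX/DOCA ITF2357. Il1r2, a decoy receptor that binds interleukin 1 without signalling, was at 0.342, 0.112, 0.396 and 0.4405 CPM in Sham vehicle, 0.439, 0.0970, 3.95 and 3.56 CPM in UNX/DOCA vehicle, and 0.148 to 0.497 CPM in UNX/DOCA ITF2357. In each of the 3 genes replicates 3 and 4 of UNX/DOCA vehicle stood close to each other and apart from all other libraries, and replicates 1 and 2 lay within or below the Sham vehicle range. Trem1, an activating receptor that amplifies inflammatory signals through Tyrobp, gave 0.190 to 0.601 CPM in Sham vehicle, 0.304, 0.0970, 2.04 and 2.27 CPM in UNX/DOCA vehicle, and 0.0370 to 0.249 CPM in UNX/DOCA ITF2357. It was the only one of the 10 genes in which replicate 4 exceeded replicate 3.

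In UNX/DOCA vehicle against Sham vehicle, which asks what the operation did to the left ventricle, the group means of the 10 genes were higher in UNX/DOCA vehicle, and 0 passed the test. Counts were tested with edgeR's quasi-likelihood F test over all 12 libraries, with Benjamini-Hochberg adjustment over the 16981 genes with enough counts, and a gene was called at an adjusted p under 0.05. Of the 10 genes 7 had enough counts, and Camp, Mmp25 and Trem1 did not. The log2 fold changes of the 7 ran from 1.70 (SE 0.70) for Csf3r to 3.52 (SE 1.67) for Ngp. Their median was 2.49, beside 0.007 over all genes tested. Il1r2 came nearest to the threshold, at 2.65 (SE 0.88), unadjusted p = 0.01035 and adjusted p = 0.190 with edgeR, and Csf3r had an unadjusted p of 0.03295 (adjusted p = 0.279). S100a8, at 2.64 (SE 1.22), had an adjusted p of 0.324, and the others lay between 0.321 and 0.357. Of all genes tested, 0 (0%) were called in this comparison, and 9.42% were higher with an unadjusted p under 0.05. The 4 UNX/DOCA vehicle libraries overlapped the 4 Sham vehicle libraries for all 10 genes, whereas 9.39% of all genes tested did not overlap.

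In UNX/DOCA ITF2357 against UNX/DOCA vehicle, which asks what the drug did in operated mice, the group means of all 10 genes were lower with ITF2357, and again 0 were called. The log2 fold changes of the 7 tested genes ran from -1.78 (SE 0.70) for Csf3r to -5.72 (SE 1.99) for Ngp, with a median of -3.65 beside -0.001 over all genes tested. S100a8 was at -4.26 (SE 1.35; unadjusted p = 0.009776, adjusted p = 0.141), Retnlg at -4.07 (SE 1.27; adjusted p = 0.136) and Il1r2 at -2.63 (SE 0.87; adjusted p = 0.144), all with edgeR. Unadjusted p was under 0.05 for all 7, but adjusted p lay between 0.136 and 0.2085. Without the filter on low counts, which admits all 10 genes, the unadjusted p was under 0.05 for all 10, and log2 fold changes were -5.25 (SE 2.05) for Camp, -3.84 (SE 1.37) for Mmp25 and -3.00 (SE 1.00) for Trem1. Of all genes tested, 0.901% were called in this comparison and 9.8% were lower with an unadjusted p under 0.05. For all 10 genes the UNX/DOCA ITF2357 libraries overlapped those of UNX/DOCA vehicle, while 9.31% of all genes did not overlap. DESeq2, tried as an alternative test, called 5 of the 7 in this comparison (S100a8, S100a9, Retnlg, Ngp, Il1r2) and Il1r2 in UNX/DOCA vehicle against Sham vehicle. It also called more of all 16981 genes than edgeR: 926 in this comparison and 593 in UNX/DOCA vehicle against Sham vehicle.

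Both sets of fold changes rested on 2 libraries. These were singled out after their high values for these genes were seen, so a shift of the fold changes without them was bound to follow. The fit without them shows only how much rests on them. With replicates 3 and 4 of UNX/DOCA vehicle left out, the 7 log2 fold changes against Sham vehicle were all below 0, from -0.23 (SE 0.67) for Il1r2 to -3.25 (SE 1.74) for Ngp, with a median of -1.36. S100a8 moved from 2.64 to -1.71 (SE 0.94, adjusted p = 0.777 with edgeR). UNX/DOCA ITF2357 against the remaining 2 UNX/DOCA vehicle libraries gave log2 fold changes above 0 for 6 of the 7 genes, from 0.10 (SE 0.92) for S100a8 to 1.09 (SE 1.86) for Ngp, with Retnlg at -0.06 (SE 0.97). None of the 7 had an unadjusted p under 0.05 in either comparison then, with only 2 UNX/DOCA vehicle libraries left. Leaving out replicate 3 alone took Ngp in UNX/DOCA vehicle against Sham vehicle from 3.52 to -0.03 (SE 1.39) and S100a8 from 2.64 to 0.78 (SE 1.06), and kept Il1r2 at 2.10 (SE 0.91). Leaving out replicate 4 alone kept Ngp at 3.83 (SE 1.77) and S100a8 at 2.76 (SE 1.34). When replicate 2 of UNX/DOCA vehicle, the lowest, was left out, 3 genes were called lower in UNX/DOCA ITF2357: Retnlg at -4.48 (SE 0.89, adjusted p = 0.0454), Trem1 at -3.40 (SE 0.70, adjusted p = 0.0444) and Il1r2 at -3.04 (SE 0.64, adjusted p = 0.0473), with edgeR. Replicate 2 held the lowest UNX/DOCA vehicle value of each of these 3 genes. Its removal was bound to raise the group mean, so these calls show only how much rests on it. In that fit 9 of the neutrophil genes had enough counts, among 17259 genes tested. Over all genes, 14 to 243 were called in this comparison across the fits that each left out 1 library, this fit among them. The share of all genes called in this fit alone is not given here, so the 3 calls lack a background of their own.

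**Figure D2:**
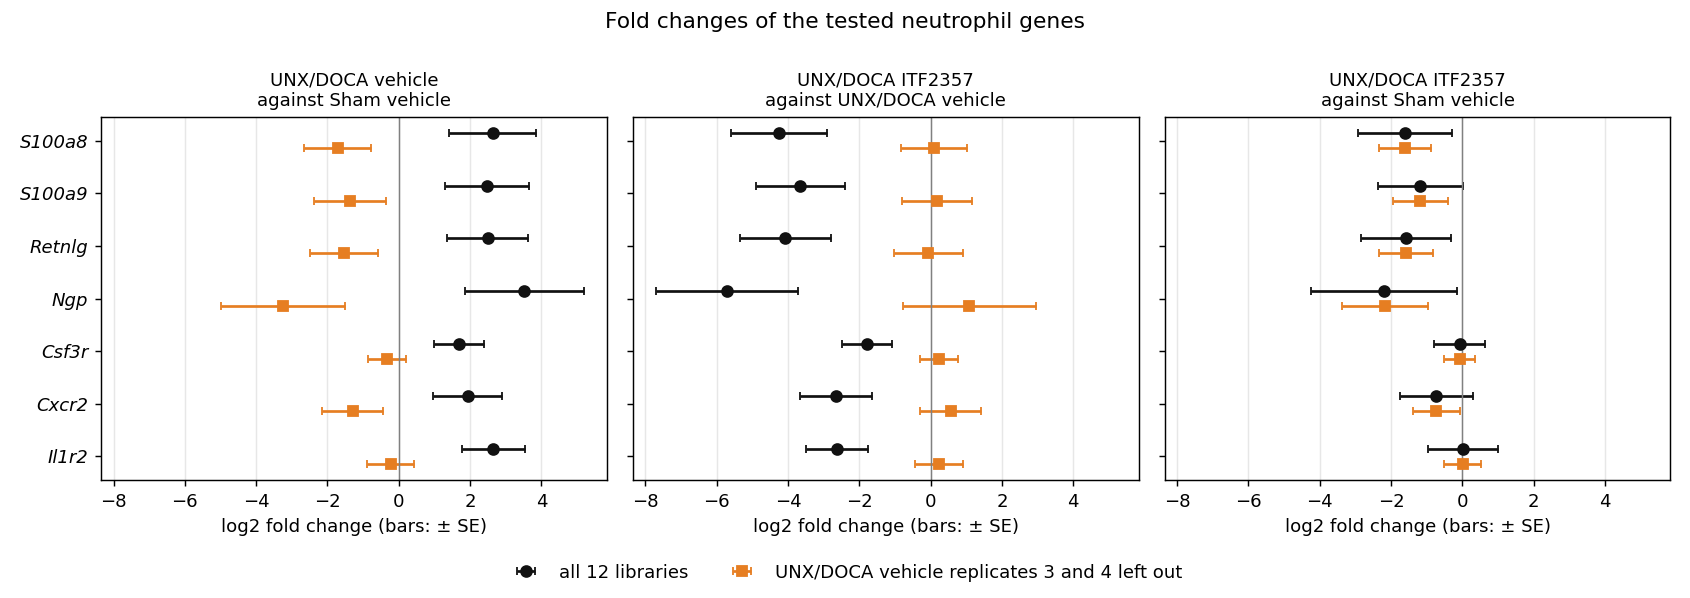
Log2 fold changes (points) with their standard errors (bars) of the 7 neutrophil genes with enough counts, in the 3 comparisons, with all 12 libraries (black) and with UNX/DOCA vehicle replicates 3 and 4 left out (orange). In the left panel the black points lie between 1.70 and 3.52 and the orange ones between -0.23 and -3.25; in the middle panel they lie between -1.78 and -5.72 and between -0.06 and 1.09; in the right panel, which does not use those libraries, the points barely move.

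Against Sham vehicle, the mean CPM of UNX/DOCA ITF2357 was lower for all 10 genes, and 0 were called. The log2 fold change was -1.61 (SE 1.31) for S100a8, -1.58 (SE 1.27) for Retnlg, -2.21 (SE 2.05) for Ngp and -0.73 (SE 1.03) for Cxcr2. Csf3r, at -0.08 (SE 0.71), and Il1r2, at 0.02 (SE 0.99), differed from Sham vehicle by less than their SE. So did S100a9, at -1.18 (SE 1.20), and Cxcr2. The median of the 7 was -1.18, beside 0.015 over all genes tested, none had an unadjusted p under 0.05, and adjusted p lay between 0.530 and 0.995. In this comparison 1.75% of all genes tested were called and 20.1% had an unadjusted p under 0.05 in either direction. The groups overlapped for all 10 genes, and 13.7% of all genes did not overlap. Without the filter, the median log2 fold change over the 10 genes was -1.40.

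The granule genes Ngp and Camp and the 4 receptors did not keep the same proportion from library to library. Between the 2 high UNX/DOCA vehicle libraries, the CPM of Ngp was 16.1 times and that of Camp 10.2 times as high in replicate 3 as in replicate 4. The same ratio was 5.78 for Mmp25, 4.39 for S100a8, 3.58 for S100a9 and 2.62 for Retnlg. For the receptors it was 1.44 (Cxcr2), 1.31 (Csf3r), 1.11 (Il1r2) and 0.899 (Trem1). The ratio was thus highest for Ngp and Camp among the 10 genes and lowest for the 4 receptors, with S100a8 and S100a9 between them. Relative to the Sham vehicle mean, the 2 libraries were at 12.2 and 11 times for Il1r2, at 6.49 and 4.96 times for Csf3r, and at 45.7 and 2.85 times for Ngp.

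A second library showed a like pattern in the Sham vehicle group. In replicate 2, Ngp was 11 times and Camp 13.8 times the median of the other 3 Sham vehicle libraries. S100a8 was at 1.76 times it, Mmp25 at 1.65, Retnlg at 1.53 and S100a9 at 1.32 times. Of the receptors, Trem1 was at 1.18 times it, Csf3r at 0.868, Cxcr2 at 0.834 and Il1r2 at 0.282 times. The ratios of Camp (75 counts, against 4, 1 and 5 in the others) and Il1r2 (4, against 9, 10 and 11) rest on few counts. So do those of Trem1 (10, against 5, 6 and 15) and Mmp25 (9, against 4, 1 and 6). Ngp and Camp together took 17.8% of the counts of the 10 genes there (329 of 1850, 95% Wilson interval 16.1 to 19.6%) and 19.1% in UNX/DOCA vehicle replicate 3 (2723 of 14247, interval 18.5 to 19.8%). In UNX/DOCA vehicle replicate 4 the share was 4.57% (interval 4.00 to 5.21%), and in the other 3 Sham vehicle libraries it was 2.21 to 2.62%. These intervals cover counting error only. The share of the 4 receptors ran from 13.4 to 33.1% in Sham vehicle, from 9.22 to 67.4% in UNX/DOCA vehicle and from 33.4 to 44.1% in UNX/DOCA ITF2357. The ITF2357 libraries thus lay above all Sham vehicle libraries in receptor share, by a narrow margin (33.4 against 33.1%), and the calprotectin pair took 43.9 to 56.4% there against 56.7 to 62.1% in Sham vehicle. Most receptor counts were Csf3r alone: 47 of 54, 188 of 252, 148 of 197 and 176 of 231 in UNX/DOCA ITF2357 replicates 1 to 4. In Sham vehicle they were 189 of 265, 173 of 248, 77 of 117 and 139 of 216. Taken without Csf3r, the receptor shares of these groups overlapped, so the higher share rests on Csf3r. Shares were looked at after the values had been seen and were not tested. The highest receptor share, 67.4% in UNX/DOCA vehicle replicate 2, rests on 87 of 129 counts (interval 59.0 to 74.9%), and 75 of the 87 were Csf3r.

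**Figure D3:**
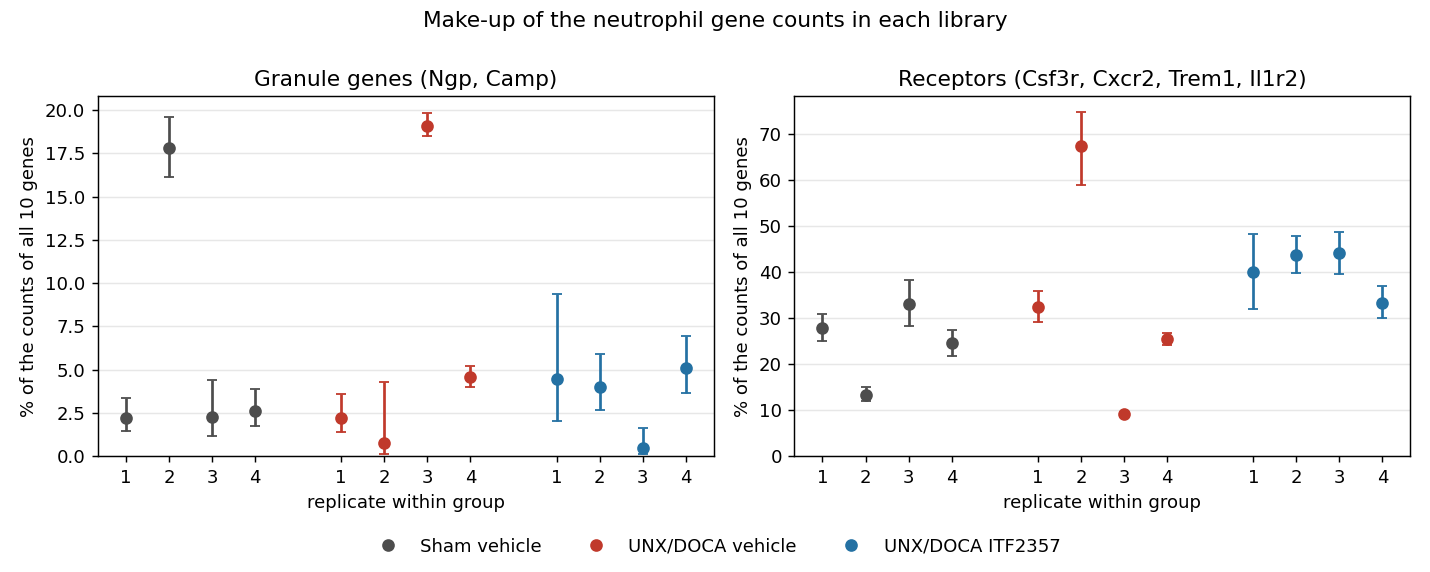
Share of the summed counts of the 10 neutrophil genes (y axis, %) held by the granule genes Ngp and Camp (left) and by the receptors Csf3r, Cxcr2, Trem1 and Il1r2 (right) in each library (x axis, replicate within group, coloured by group), with 95% Wilson intervals. Sham vehicle replicate 2 (17.8%) and UNX/DOCA vehicle replicate 3 (19.1%) stand apart on the left, while on the right the ITF2357 libraries lie between 33.4 and 44.1%. Most of the receptor counts were Csf3r.

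**Figure D4:**
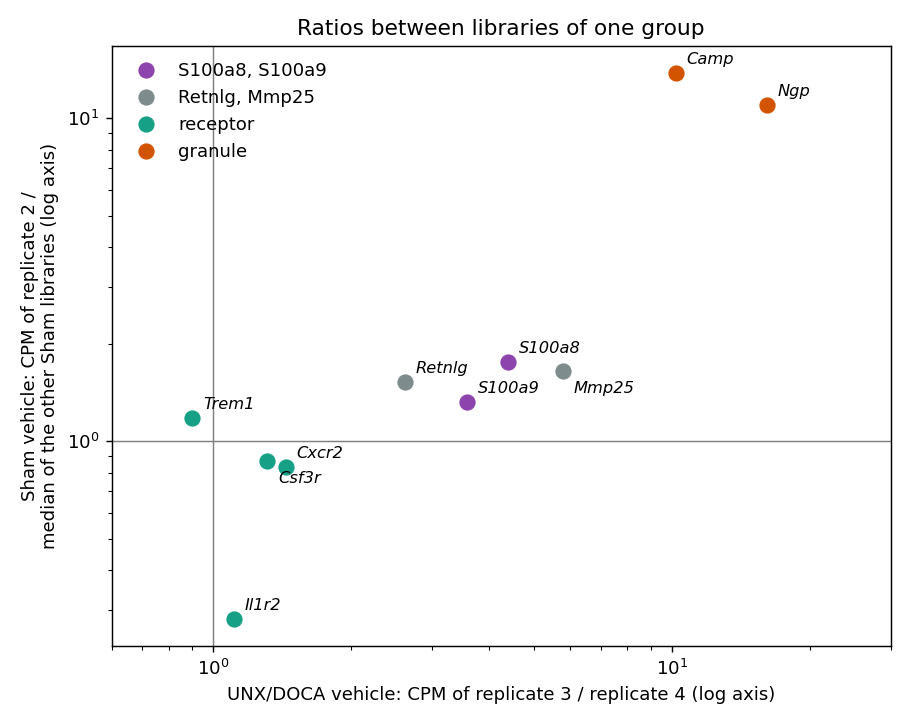
For each of the 10 genes, the ratio of CPM in UNX/DOCA vehicle replicate 3 to replicate 4 (x, log axis) against the ratio of Sham vehicle replicate 2 to the median of the other 3 Sham vehicle libraries (y, log axis), coloured by role, with grey lines at 1. Ngp and Camp lie at the upper right (16.1 and 10.2 on x, 11 and 13.8 on y), and the 4 receptors lie between 0.899 and 1.44 on x.

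Other neutrophil genes followed these ratios only in part: between replicates 3 and 4 of UNX/DOCA vehicle, the ratio ran from 1.57 (Cybb) to 17.2 (Ltf) over the 10 genes of the specific and gelatinase granules, and from 0.486 (Il1b) to 8.82 (Ly6g) over the 22 mature neutrophil genes. Among the granule genes, Ltf (lactoferrin) was 17.2 times as high in UNX/DOCA vehicle replicate 3 as in replicate 4 and 17.8 times the median of the other Sham vehicle libraries in Sham vehicle replicate 2. Cd177 and Pglyrp1, a surface protein and an antibacterial protein of these granules, had ratios of 16.3 and 9.44 between replicates 3 and 4, but only 2.66 and 1.5 in Sham vehicle replicate 2. Lcn2, a siderophore-binding granule protein also made by other cells, had 2.63 and 1.21. Among receptors of mature cells, Clec4d and Clec4e, which sense microbial and dead-cell ligands, had ratios of 0.982 and 1.32 between replicates 3 and 4, but other receptors of the same list were higher in replicate 3, at 4.2 for Ltb4r1, a leukotriene receptor, 3.82 for Fpr2, 3.47 for Mrgpra2a (3 counts and 1) and 3.24 for Mrgpra2b. Fpr1, a receptor for bacterial peptides, had 2.39 with 13.4 in Sham vehicle replicate 2, where the median of the other Sham vehicle libraries was only 0.0791 CPM, a few counts. Il1b, which macrophages also make, was lower in replicate 3 than in replicate 4 (ratio 0.486). The azurophil genes, the earliest stage (Mpo, Elane, Prtn3, Ctsg, Ms4a3, Fcnb), summed to 0.0760 to 0.158 CPM in Sham vehicle, 0.0337, 0.0970, 1.54 and 0.324 CPM in UNX/DOCA vehicle, and 0.0911 to 0.185 CPM in UNX/DOCA ITF2357. Of Mpo, their best known gene, UNX/DOCA vehicle replicate 3 held 15 counts and replicate 4 held 5, and Elane had 5 counts in replicate 3 and 0 in replicate 4. Ltf, Cybb, Fpr1, Clec4d, Ltb4r1, Mrgpra2a, Mrgpra2b and Il1b, and the azurophil genes by name, were singled out after their values were seen.

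As lists, 9 of the 10 specific and gelatinase granule genes and 14 of 22 mature neutrophil genes had enough counts, and 0 were called in any of the 3 comparisons. All 9 granule genes were above 0 in UNX/DOCA vehicle against Sham vehicle (median log2 fold change 2.49) and below 0 in UNX/DOCA ITF2357 against UNX/DOCA vehicle (median -3.46). Of the 14 mature neutrophil genes 13 were above 0 in the first comparison (median 1.81) and 13 below 0 in the second (median -2.36). Among all genes tested 51.1% and 49.8% were above 0 in these comparisons. The granule gene with the smallest p in the first comparison was Lcn2, at 2.7 (SE 0.79, adjusted p = 0.161), followed by Chil1, a chitinase-like protein, at 2.87 (SE 0.95, adjusted p = 0.195), both with edgeR. Of the mature genes, Clec4e was at 2.22 (SE 0.75, adjusted p = 0.197), Hdc, the enzyme that makes histamine, at 1.90 (SE 0.65, adjusted p = 0.202), Fpr2 at 2.32 (SE 0.83, adjusted p = 0.213) and Slfn1 at 1.73 (SE 0.67, adjusted p = 0.249), with the same test. Hdc stood at 17.2 and 12.8 CPM in UNX/DOCA vehicle replicates 3 and 4 and at 1.44 to 6.21 CPM in the other 10 libraries. The defining surface marker Ly6g had 84 counts in replicate 3, 11 in replicate 4 and 0 to 8 in the other libraries, and Cxcr1, the neighbouring receptor of Cxcr2, was at 0 in all Sham vehicle libraries.

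Of 15 ligands and survival factors 9 had enough counts, 0 were called in any comparison, and the median log2 fold change was 0.33 in UNX/DOCA vehicle against Sham vehicle, with 7 of 9 above 0, and -1.02 in UNX/DOCA ITF2357 against UNX/DOCA vehicle, with 9 of 9 below 0. Csf3, the ligand of Csf3r, had 1 count in 1 Sham vehicle library and 0 in the other 11, and Il17a, which induces it, had 0 in all 12, so neither was detectable at this depth. Cxcl12, the ligand of Cxcr4 that holds neutrophils in marrow, was abundant, at group means of 198.5 CPM in Sham vehicle, 249.6 CPM in UNX/DOCA vehicle and 240.3 CPM with ITF2357. Il1rn, which blocks the interleukin 1 receptor, was at 1.18 (SE 0.56, adjusted p = 0.324) in UNX/DOCA vehicle against Sham vehicle, and Il34, a ligand of Csf1r, at 0.78 (SE 0.34, adjusted p = 0.292), both with edgeR. Csf1, the other ligand of Csf1r, was at -0.64 (SE 0.19, adjusted p = 0.117) in UNX/DOCA ITF2357 against UNX/DOCA vehicle. Csf3 and Il17a were singled out after their values were seen.

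Among 15 partners of the genes, signalling adaptors, sensors and transcription factors, 12 had enough counts and 0 were called. In UNX/DOCA vehicle against Sham vehicle 11 of the 12 were above 0 (median 0.72), and 11 were below 0 in UNX/DOCA ITF2357 against UNX/DOCA vehicle (median -0.50). Tyrobp, the adaptor of Trem1, was at 18.1 and 12.7 CPM in UNX/DOCA vehicle replicates 3 and 4 and at 5.22 to 8.53 CPM elsewhere. Spi1, which encodes PU.1, was at 12.9 and 8.38 CPM there and at 2.97 to 4.93 CPM elsewhere. Both are also expressed by macrophages. Tlr2, a sensor of bacterial lipoproteins, had a log2 fold change of 0.79 (SE 0.28, adjusted p = 0.211 with edgeR) in the first comparison. Myd88, the adaptor of the Toll-like and interleukin 1 receptors, was at 11.4, 12.2, 18.6 and 15.1 CPM in UNX/DOCA vehicle, above all Sham vehicle libraries (9.61 to 11.1 CPM) and all UNX/DOCA ITF2357 libraries (9.24 to 10.7 CPM). Its log2 fold changes were 0.46 (SE 0.14, adjusted p = 0.161) and -0.51 (SE 0.14, adjusted p = 0.0915) with edgeR, so it was not called either. Of all genes tested, 9.39% did not overlap in UNX/DOCA vehicle against Sham vehicle and 9.31% in UNX/DOCA ITF2357 against UNX/DOCA vehicle.

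Of 10 molecules by which leukocytes adhere to vessels all had enough counts, 0 were called, and 9 of 10 were above 0 in UNX/DOCA vehicle against Sham vehicle (median 0.58) and below 0 in UNX/DOCA ITF2357 against UNX/DOCA vehicle (median -1.09). Selp (P-selectin), which endothelium and platelets display to catch rolling neutrophils, was at 0.236, 0.129, 3.62 and 1.65 CPM in UNX/DOCA vehicle, at 0 to 0.4805 CPM in Sham vehicle and at 0.0911 to 0.414 CPM in UNX/DOCA ITF2357. The same 2 libraries thus stood apart as for the neutrophil genes. Its log2 fold change against Sham vehicle was 3.13 (SE 1.06, adjusted p = 0.1995 with edgeR). Itgb2 and Itgam, which form the integrin of neutrophils and macrophages, were at 0.89 (SE 0.40) and 0.90 (SE 0.41), and Pecam1, an endothelial junction protein, was at 0.45 (SE 0.14, adjusted p = 0.166).

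Markers of other cells moved with the same libraries in part. The sum of 15 macrophage genes was 654 and 484 CPM in UNX/DOCA vehicle replicates 3 and 4, above the 256 and 337 CPM of replicates 1 and 2, the 257 to 291.5 CPM of Sham vehicle and the 223 to 424 CPM of UNX/DOCA ITF2357. All 15 had enough counts and none was at 0 in any library. For C1qb, a complement gene of resident macrophages, the log2 fold change in UNX/DOCA vehicle against Sham vehicle was 0.96 (SE 0.30, adjusted p = 0.171), and for Csf1r 0.48 (SE 0.29, adjusted p = 0.454), both with edgeR. The platelet sum (8 genes) was 30.7 and 28.5 CPM in replicates 3 and 4 and 14.09 to 22.98 CPM elsewhere, and the monocyte sum (10 genes, most of it Nr4a1 and F13a1) was 516 and 271 CPM beside 270.5 to 437 CPM in Sham vehicle. Nr4a1 alone was at 299 and 103 CPM in replicates 3 and 4 and at 11.4 to 334 CPM elsewhere, so it largely sets this sum. Of 7 monocyte genes with enough counts, 6 were above 0 in UNX/DOCA vehicle against Sham vehicle (median 0.79). In UNX/DOCA ITF2357 against UNX/DOCA vehicle 6 were below 0 (median -0.70). Of the 15 macrophage genes, 14 were above 0 and 14 below 0 in these comparisons (medians 0.64 and -0.44). The part of macrophages, monocytes and platelets in the neutrophil values was not tested. Red cell genes, a measure of blood left in the tissue, summed over 8 genes to 349.7 and 366 CPM in replicates 3 and 4, below every Sham vehicle library (451 to 563 CPM), as were replicates 1 and 2 (180.3 and 385.6 CPM) and 3 of the 4 UNX/DOCA ITF2357 libraries (259.7 to 311.6 CPM, with 607 CPM in replicate 1). Eosinophil genes, of which Epx was at 0 in all Sham vehicle and UNX/DOCA vehicle libraries, summed to at most 0.623 CPM.

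Lymphocyte and mast cell genes had low sums. Mast cell and basophil genes (8) summed to 4.403 to 8.285 CPM over the 12 libraries, and T and NK cell genes (12) to 4.32 and 5.07 CPM in UNX/DOCA vehicle replicates 3 and 4 and 2.10 to 4.16 CPM in the others. B cell genes (8) summed to 5.62 to 13.3 CPM in Sham vehicle, 4.46 to 12.35 CPM in UNX/DOCA vehicle and 4.64 to 6.14 CPM in UNX/DOCA ITF2357. Across the lists of other cells, the B cell list had called genes, among them Cd79b, a part of the B cell receptor, which was lower in UNX/DOCA ITF2357 than in UNX/DOCA vehicle and than in Sham vehicle. Ly6g, Cxcr1 and Epx were named after their values were seen. The macrophage, monocyte, platelet, red cell, mast cell, T and NK cell and cardiomyocyte lists had 0 called in any of the 3 comparisons. Only 2 of the 12 T and NK cell genes had enough counts, with 4 of 8 mast cell and 4 of 8 platelet genes. Over all genes tested, 0% were called for UNX/DOCA vehicle against Sham vehicle. The share was 1.75% for the drug group against Sham vehicle and 0.901% for it against UNX/DOCA vehicle. At such shares short lists would mostly have 0 called, so this does not set them apart from other genes.

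The genes whose levels followed the 7 tested neutrophil genes most closely over the 12 libraries were Mmp9 (Spearman rho 0.986), Myo1f (0.979), Qtrt1 (0.972), Ltf (0.965), Cd177 (0.965), Mcemp1 (0.958), Fgr (0.958) and Mmp8 (0.951), out of 15950 candidates and ranked against the mean centred log2 CPM of the 7. These are ranks of libraries that share depth and tissue make-up, and they carry no test. Mmp9, Mmp8, Ltf and Cd177 belong to granules, Mcemp1 is a surface protein of myeloid cells, and Fgr is a kinase of them. Mmp9 was at 40.4 and 7.80 CPM in UNX/DOCA vehicle replicates 3 and 4 and at 0.0323 to 3.02 CPM elsewhere. Qtrt1, an enzyme that modifies transfer RNA, followed the order with a far smaller spread, from 2.715 to 4.999 CPM, and Myo1f, a leukocyte myosin, had group means of 4.43 CPM in Sham vehicle, 7.12 CPM in UNX/DOCA vehicle and 3.445 CPM with ITF2357. Of the 10 genes themselves, S100a8 and S100a9 had the highest rho with the mean of the other tested members (0.986 each), and Mmp25 (0.655), Il1r2 (0.664) and Csf3r (0.755) the lowest, over the same 12 libraries.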

How the data were processed

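Poly(A) RNA of about 10 mg of left ventricle from 12 mice was sequenced in pairs of 150 bp reads from directional libraries, per the labels' protocols. The authors deposited raw, unnormalized counts by Ensembl gene. FastQC 0.11.9, STAR 2.7.10b and the mm39 build stand in the submitters' processing notes; neither the counting tool nor its strand setting or annotation is given in the sources used here. Whether reads of genes that overlap on opposite strands were kept apart is therefore unknown. A GRCm38 annotation gave the symbols, which covered 99.2% or more of the counts in every library. Groups follow the sample titles, which name ITF2357 for every drug sample. A treatment field gives these samples compound numbers that rise in sequence from ITF2357, so not all of them read ITF2357 there. The labels thus conflict on the compound, and the titles were used.

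Counts were tested in R 4.3.3 with edgeR 4.0.16: filterByExpr (minimum count 10), TMM scaling, and a robust quasi-likelihood fit with a term per group over all 12 libraries (9 residual degrees of freedom, common biological coefficient of variation 0.187), with Benjamini-Hochberg adjustment over 16981 genes. Tests are two-sided, and standard errors (SE) were derived from F, as |log2 fold change| over its square root. Exon lengths per gene are those of the GRCm38 annotation. The script was tested on simulated data. Total counts were 23354045 to 34908810. Replicates of a group differed by more than counting error (chi-square per degree of freedom 9.67 to 50.2 between pairs). Replicate numbers did not pair libraries across groups (correlations of -0.19 to 0.25 over 12 pairs).

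The 10 genes, the 15 other gene lists and the alternatives were chosen with earlier results of these data known, UNX/DOCA vehicle replicates 3 and 4 among them. Named besides the 10 genes are up to 4 genes with the smallest p in UNX/DOCA vehicle against Sham vehicle from each list of neutrophil, ligand, partner and adhesion genes, up to 2 abundant genes from the lists of other cells, and the 8 genes most like the 10. Alternatives were RLE, upper-quartile and total-count scaling, no filter, 1 CPM in 4 libraries, DESeq2 1.42.0, limma-voom (limma 3.58.1) with sample weights, only the groups compared, a replicate block, no robust dispersion, each library left out, and the fit without both replicate 3 and replicate 4 of UNX/DOCA vehicle.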

Additional observations from a re-analysis of the deposited data

Results flagged for a closer look

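Among the 30 checks of 1 gene in 1 group of 4 libraries, 5 found a single library further from its nearest neighbour than Dixon's test allows at 95%. Chance gives about 1 in 20 only for independent checks of normally distributed values. These checks used CPM without a log, and the genes vary together (rho up to 0.986). All 5 marks fell on Sham vehicle replicate 2 or UNX/DOCA vehicle replicate 3, so their number cannot be set against that rate. In Sham vehicle, Ngp in replicate 2 was at 7.10 CPM with the next library at 0.721 CPM, and Camp in replicate 2 was at 2.095 CPM with the next at 0.200 CPM. In UNX/DOCA vehicle, replicate 3 stood apart for Ngp at 99.9 CPM, for Camp at 13.3 CPM and for Mmp25 at 2.701 CPM. Ngp and Camp, both of the specific granules, were thus marked in both groups. No library was marked for S100a8, S100a9, Retnlg or the 4 receptors, in which replicates 3 and 4 of UNX/DOCA vehicle both lay far above replicates 1 and 2, and a check for 1 distant library cannot mark such a pair.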

How the results depend on the processing

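The count of called neutrophil genes, 0 in each comparison, kept its value under every scaling and filter tried and with limma-voom. DESeq2 called 1 in UNX/DOCA vehicle against Sham vehicle and 5 in UNX/DOCA ITF2357 against UNX/DOCA vehicle. With single libraries left out the second count ran from 0 to 3, the 3 being reached without UNX/DOCA vehicle replicate 2. That library was the lowest of its group for these 3 genes, so its removal was bound to raise the group mean. The replicate block called 0 in each comparison, and the numbers do not pair the libraries; over all genes it called 31, 68 and 192 in place of 0, 153 and 298. UNX/DOCA vehicle replicates 3 and 4 were picked after their values for these genes were seen. With both left out, the log2 fold changes against Sham vehicle turned to -1.71 (S100a8), -1.36 (S100a9), -1.53 (Retnlg), -0.32 (Csf3r), -1.29 (Cxcr2), -3.25 (Ngp) and -0.23 (Il1r2). Those of UNX/DOCA ITF2357 against UNX/DOCA vehicle turned to 0.10 (S100a8), 0.18 (S100a9), 0.23 (Csf3r), 0.56 (Cxcr2), 1.09 (Ngp) and 0.24 (Il1r2). limma-voom with sample weights turned S100a8 (-0.04), Retnlg (-0.29) and Ngp (-0.13) in UNX/DOCA vehicle against Sham vehicle; the cause was not tested. Single libraries left out turned Ngp in that comparison (range -0.03 to 5.57) and, in UNX/DOCA ITF2357 against Sham vehicle, Csf3r (-0.33 to 0.19) and Il1r2 (-0.31 to 0.24, and -0.02 with DESeq2). In UNX/DOCA ITF2357 against UNX/DOCA vehicle no single library left out turned a sign.

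Over all genes, calls in UNX/DOCA vehicle against Sham vehicle (0 in the report) were 593 with DESeq2, 521 with limma-voom, 210 with no filter, 7 with upper-quartile scaling and 0 to 380 with single libraries left out. In UNX/DOCA ITF2357 against UNX/DOCA vehicle (153) they were 926 with DESeq2, 251 with limma-voom, 352 with no filter, 5 with only the groups compared, 12 without UNX/DOCA vehicle replicates 3 and 4, and 14 to 243 with single libraries left out. In UNX/DOCA ITF2357 against Sham vehicle (298) they were 1168, 1506 and 475 with DESeq2, limma-voom and only the groups compared, 481 without those replicates, and 17 to 616 with single libraries left out. Camp, Mmp25 and Trem1 lay below the filter, so depth limits what can be said of them.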
